A study of Mus musculus with 8 samples.

Results

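The mouse miRNAs with numbers above 1000 that were detected in all 8 kidney samples of this study form a set of 123, out of 1881 mouse miRNAs with probes on the array. They were chosen by name and by a measured flag: the name starts with mmu-miR-, the number after it is above 1000, and the scanner software flagged the miRNA as detected on each of the 8 arrays. Their detection is therefore not a finding, and their levels are given as a description. The comparison set is the 191 detected miRNAs with numbers up to 1000, and let-7, which has no such number in its name, was in neither set. The 8 arrays, 1 per sample, measured whole kidneys of male mice, 4 of the strain C57BL/6J (control; the titles say Mock) and 4 of the strain C57BL/6-Ins2Akita/J (Akita). The age label reads 36 in both groups with no unit. The Akita allele is a dominant mutation of Ins2 whose misfolded proinsulin harms pancreatic beta cells, so these mice are a model of diabetes, present from early life and in the whole animal rather than in the kidney alone. No label ties the samples to separate mice, so p-values measure the spread between these 4 and 4 samples, which may be partly technical. In tissue extracts such as these, fewer cells of a type and less RNA per cell cannot be told apart.

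miRBase, the registry of miRNAs, numbers its entries in the order they are registered, so late numbers mostly stand for miRNAs found by deep sequencing after the abundant, conserved ones had been named. Many late mouse entries come from hairpins in introns or near repeats, and for many little is known of their function. A mature miRNA is cut from the 5p or the 3p arm of a hairpin and recognises its targets mainly through the seed, bases 2 to 8. On this array a miRNA is read by probes complementary to its 3′ end, after a Cy3 dye is ligated to the 3′ ends of the RNA. The probes are made shorter for GC-rich targets, which bind more tightly.

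The mature sequences of the members that carry the findings are printed below 5′ to 3′ from RefSeq (GRCm38.p6), in which 110 of the 123 members were found; the seed is in capitals. The 7 members that passed the test between Akita and control kidneys come first.
miR-6412: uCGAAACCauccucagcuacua
miR-8101: gGCGAGCGgagccggaggagcc
miR-7080-3p: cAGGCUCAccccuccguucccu
miR-7671-3p: aAGCGGGCaggcggagaaccac
miR-3092-3p: gAAUGGGGcuguuuccccucc
miR-1894-3p: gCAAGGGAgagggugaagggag
miR-8102: uCACGCGGgggaacgaggaaga

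The brightest members follow, with 3 dimmer relatives of miR-3473b and a pair of members with GU repeats, because these varied most between arrays or serve as their comparison. MiR-3960, which is among the 12 brightest, has no entry in that table.
miR-6366: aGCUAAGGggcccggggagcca
miR-3963: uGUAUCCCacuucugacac
miR-5100: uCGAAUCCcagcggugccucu
miR-3968: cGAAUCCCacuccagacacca
miR-3473b: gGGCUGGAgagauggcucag
miR-3473a: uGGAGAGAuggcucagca
miR-3473e: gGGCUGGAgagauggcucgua
miR-5128: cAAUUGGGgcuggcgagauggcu
miR-3473g: cAAAAGUGaggcuggggaga
miR-1224-5p: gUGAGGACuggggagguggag
miR-8117: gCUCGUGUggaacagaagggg
miR-5126: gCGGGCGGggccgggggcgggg
miR-8110: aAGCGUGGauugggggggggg
miR-1187: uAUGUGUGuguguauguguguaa
miR-3082-5p: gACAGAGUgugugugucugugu

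The seeds of the members were nearly all different. The 110 matched members carried 107 seeds, while the 164 matched earlier-numbered miRNAs carried 126, and 62 of those shared a seed with another of their set. GGCUGGA was shared by miR-3473b and miR-3473e, GAGGGAG by miR-6965-5p and miR-7047-5p, and CUGGGGA by miR-6975-5p and miR-7005-5p. The number of matched members whose seed occurred in a detected earlier-numbered miRNA was 0. None of the 110 therefore belongs by its seed to the families of the matched earlier-numbered miRNAs, such as miR-30, which is abundant in kidney epithelium.

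A single position is given by RefSeq for 109 of the matched members. Of these, 87 (79.8%) lie within the span of a protein-coding gene, against 76 of 142 (53.5%) for the detected earlier-numbered miRNAs and 84.0% of the late-numbered miRNAs detected on no array. The table gives gene spans only, so exon, intron and the strand of the gene were not read. Among the called members, miR-1894-3p lies at chr17:35917938-35917959 on the plus strand within Ppp1r10, and miR-8101 at chr11:102230103-102230124 on the minus strand within Hdac5, a class II histone deacetylase. MiR-7080-3p lies at chr8:123130147-123130168, plus strand, within Cpne7, and miR-3092-3p at chr3:27584915-27584935, minus strand, within Fndc3b. No protein-coding span of the table holds miR-6412 (chr10:122648412-122648433, plus strand), miR-8102 (chr11:97744974-97744995, plus strand) or miR-7671-3p (chr11:53763597-53763618, minus strand). These positions are in GRCm38.p6, and the array's own annotation, which uses mm9, was not mixed with them.

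The detected share was lower for late-numbered miRNAs than for earlier ones, which is a description, since the same detection flag chose the members. Of 1062 late-numbered miRNAs on the array, 123 (11.6%, 95% Wilson interval 9.79% to 13.6%) were detected on all 8 arrays, 874 on none and 65 on some. Of 799 earlier-numbered ones, 191 (23.9%, 21.1% to 27.0%) were detected on all 8 and 556 on none. These intervals treat miRNAs as independent and cover counting error only. By block of numbers, the detected share was 14 of 121 (11.6%) below 2000, 26 of 154 (16.9%) in the 3000s, 8 of 68 (11.8%) in the 5000s, 29 of 321 (9.03%) in the 6000s and 37 of 358 (10.3%) in the 7000s. The small blocks gave 2 of 5 in the 2000s and 7 of 35 from 8000 on, and the array holds 0 miRNAs with numbers in the 4000s. The intervals of these blocks overlap one another.

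The members' probes were shorter and richer in GC. The longest probe of a member had a median GC content of 64.3% (quartiles 60% and 71.4%, range 30.0% to 100.0%) and a median length of 15 bases (range 10 to 20). For the detected earlier-numbered miRNAs the medians were 50% GC and 18 bases. Late-numbered miRNAs detected on no array lay between, at 56.2% GC and 16 bases. The mature miRNAs themselves were as long in both detected sets, with a median of 22 bases, and had median GC contents of 62.5% (late) and 45.6% (earlier). Length and GC of a probe go together by the array's design, and their parts cannot be told apart here.

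Among late-numbered miRNAs the detected share was highest where the probe was richest in GC, and among earlier-numbered ones it had no such order. Among late numbers, 15 of 253 miRNAs with a probe GC under 50% were detected on all arrays (5.93%, 95% Wilson interval 3.63% to 9.55%), 47 of 585 at 50% to 65% (8.03%, 6.10% to 10.5%), and 61 of 224 over 65% (27.2%, 21.8% to 33.4%). Among earlier numbers the shares were 93 of 393 (23.7%), 85 of 338 (25.1%) and 13 of 68 (19.1%, 11.5% to 30.0%). Over 65% GC the intervals of the late and earlier sets overlap, and under 65% they do not. These intervals too treat miRNAs as independent, and their overlap is not a test. Members over 65% GC made up 61 of 123 (49.6%), against 13 of 191 (6.81%) in the earlier set. Nothing here shows how much of the signal of a GC-rich probe comes from the named miRNA, and this was not tested.

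**Figure D1:**
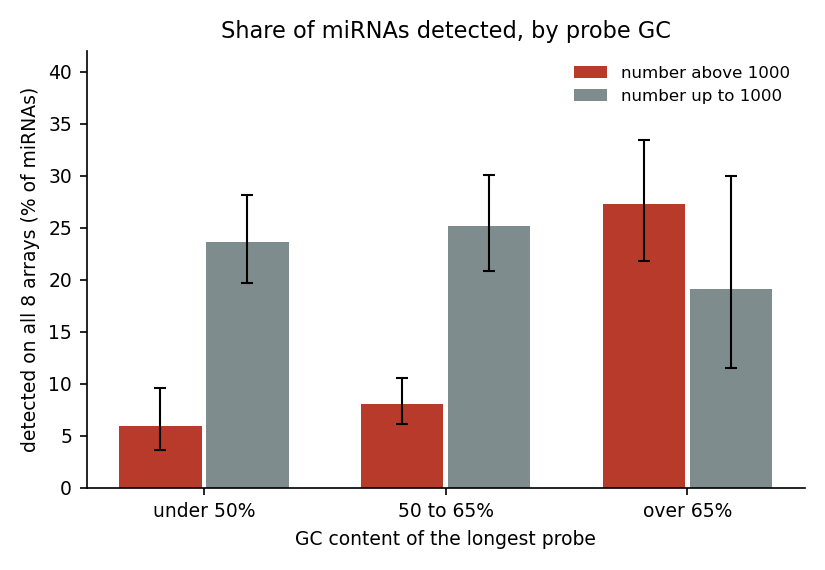
Share of miRNAs detected on all 8 arrays (%) by GC content of the longest probe, for miRNAs with numbers above 1000 (red) and up to 1000 (grey); bars are shares and error bars 95% Wilson intervals. The red bars run from 5.93% to 27.2%, while the grey bars stay between 19.1% and 25.1%.

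Runs of G were also more frequent among the members. A run of at least 4 G stood in the mature sequence of 33 of 110 matched members (30.0%), of 10 of 164 matched earlier-numbered miRNAs (6.10%) and of 84 of 764 late-numbered miRNAs detected on no array (11.0%). MiR-8110 ends in such a run, and miR-5126 consists of G and C only. In 24 members (19.5%) the run lay in the bases that the longest probe pairs with, against 8 (4.19%) in the earlier set.

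The shorter probes leave the seed unread. In all 110 matched members the longest probe paired exactly with the 3′ end of the mature miRNA, and in 56 of them (50.9%) it covered no base of the seed. In the earlier set this was so in 15 of 164 (9.15%). The 12-base probe of miR-6366, for example, starts to pair at base 11. The probe target of miR-3473b is also found whole in miR-3473a, and that of miR-3470a in miR-3470b, which has no probes of its own name; the signals of such members cannot be assigned to 1 of the 2 miRNAs. No other member's target occurred in another mature miRNA of the table.

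Levels are log2 scaled signals: the processed intensities of a miRNA's probes were summed, after each array had been divided by its 75th percentile over well-measured probes and set to a common size. Signals depend on the probe as well as on the amount of miRNA, so the order of the levels below is an order of fluorescence and not of abundance. The members had a median level of 5.87 (quartiles 5.26 and 6.95, range 4.56 to 17.83), and the earlier set one of 7.21 (6.00 and 9.59, up to 13.39). In 67 members (54.5%) the level was under 6, close to the floor of 4.56 below which sums were not resolved, against 48 (25.1%) of the earlier set. Only 6 members (4.88%) were above 10, against 40 (20.9%). The median of the 39 members with no arm in their name was 6.88, that of the 53 from the 5p arm 5.99 and that of the 31 from the 3p arm 5.31.

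**Figure D2:**
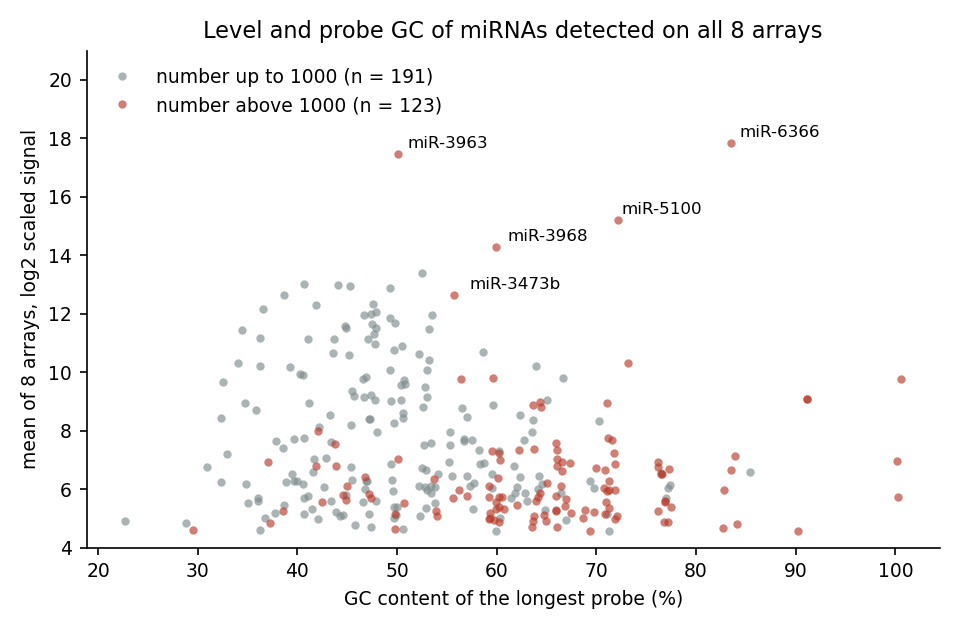
Mean level over 8 arrays (log2 scaled signal) against GC content of the longest probe (%), 1 point per miRNA detected on all 8 arrays, with numbers above 1000 in red (n = 123) and up to 1000 in grey (n = 191); points are shifted sideways by less than 1 percentage point for visibility. Most red points lie low and to the right, and 4 of them, miR-6366, miR-3963, miR-5100 and miR-3968, lie above every grey point.

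A few members were brighter than any earlier-numbered miRNA. MiR-6366 read 17.66, 17.84, 17.71 and 17.69 in the control samples and 17.88, 17.86, 17.87 and 18.15 in the Akita samples. MiR-3963 read 17.51, 17.43, 17.34 and 17.36 in control and 17.53, 17.48, 17.44 and 17.66 in Akita. Both varied little between arrays, with SDs within a group of 0.08 to 0.14. Together with miR-5100 (15.11 ± 0.08 in control and 15.30 ± 0.09 in Akita, SD, n = 4 each) and miR-3968 (14.18 ± 0.15 and 14.38 ± 0.12), they gave 63.2% to 68.3% of the summed signal of all miRNAs on an array. MiR-6366 alone gave 29.9% to 35.0% and miR-3963 24.3% to 27.0%, while all 191 earlier-numbered miRNAs gave 21.8% to 24.5%.

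Among these 4, the Akita values of miR-6366 and miR-5100 lay above all control values without overlap, and those of miR-3963 and miR-3968 overlapped with control. None of the 4 passed the test described below: miR-6366 differed by 0.21 (log2, Akita minus control, 95% interval 0.02 to 0.40, adjusted p = 0.12 by limma) and miR-5100 by 0.19 (0.02 to 0.35, adjusted p = 0.12). MiR-3968 differed by 0.20 (-0.01 to 0.41, adjusted p = 0.17) and miR-3963 by 0.12 (-0.05 to 0.28, adjusted p = 0.30). Without scaling these 4 differences were all below 0, from -0.16 (miR-3963) to -0.061 (miR-6366).

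The next brightest members were miR-3473b, miR-1224-5p, miR-8117, miR-5126, miR-3473a, miR-3960, miR-8110 and miR-3473g. MiR-1224-5p, which is cut from a short intron as a mirtron, read 10.19 ± 0.13 in control and 10.46 ± 0.22 in Akita, and miR-8117 9.69 ± 0.11 and 9.91 ± 0.17. MiR-5126 read 9.79 ± 0.20 and 9.79 ± 0.32. MiR-3960 read 8.95 ± 0.29 and 9.23 ± 0.42. In all 4 the groups overlapped, and the smallest adjusted p, that of miR-1224-5p, was 0.14 by limma.

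In some members the signal hinged on 1 base of the probe. The probes are shown 5′ to 3′ with the base that the longer one has in addition in capitals, and the signals are means of the 8 arrays before scaling. These 3 were picked for their large steps.
miR-3968, 14 bases: tggtgtctggagtg
miR-3968, 15 bases: tggtgtctggagtgG
miR-5100, 13 bases: agaggcaccgctg
miR-5100, 14 bases: agaggcaccgctgG
miR-6412, 17 bases: tagtagctgaggatggt
miR-6412, 18 bases: tagtagctgaggatggtT
The longer probe of miR-3968 gave 19021 and the shorter one 959, a ratio of 19.8. For miR-5100 the signals were 33540 and 4263, a ratio of 7.87, and for miR-6412 168 and 22.1, a ratio of 7.59. Over 131 such steps of 1 base among the members the median ratio was 1.21 (quartiles 1.02 and 2.24), and 21 steps (16.0%) exceeded a ratio of 5. In several of these 21 the shorter probe read close to 0, as in miR-6238 (0.32) and miR-8105 (0.48), so the size of the ratio means little there. Steps with such dim probes were not set apart in either set. Over 233 steps in the earlier set the median ratio was 1.60 (1.25 and 2.25), and 7 (3.00%) exceeded 5. In 28 steps of the members (21.4%) the longer probe was the dimmer one, as in miR-7005-5p, against 18 (7.73%) in the earlier set. The brightest member, miR-6366, was also such a case, with 161891 on its 11-base probe and 71545 on its 12-base probe (ratio 0.44). How much of that signal comes from the named miRNA was not tested. The summed level of a member with a large step, such as miR-3968, therefore rests mostly on 1 of its probes. Where the ratio was near 1, as in miR-3092-3p (0.98), the probes gave like signals.

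At the other end, 11 members were above background on no array although the scanner software flagged them as detected, and 27 were above background on some arrays. The remaining 85 were above background on all 8. The 3 dimmest members by scaled signal were miR-8105 (13.7 to 22.8 over the 8 arrays), miR-3077-5p (14.4 to 22.8) and miR-3962 (16.7 to 27.2), all at or near the floor of 23.65. Just outside the rule were 12 late-numbered miRNAs detected on 7 arrays. The brightest of these were miR-6918-5p (4.57 to 76.1 in scaled signal), miR-7080-5p (6.05 to 74.8) and miR-3095-3p (23.2 to 46.5). MiR-7080-5p is the other arm of miR-7080-3p, which was called higher in Akita. The 5p arm was not tested and had a lower mean in Akita, with overlap (5.67 ± 0.65 in control and 4.82 ± 0.17 in Akita, SD). On either side of the number limit, the nearest detected miRNAs were miR-877-3p (mean level 6.51) and miR-874-3p (6.56) below it and miR-1187 (6.92) and miR-1198-5p (6.29) above it.

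Both arms of a hairpin were rarely detected together. Of 406 late-numbered hairpins with probes for both arms, 79 had a detected arm, and in 4 of these (5.06%) both arms were detected on all 8 arrays. In the earlier set it was 25 of 126 (19.8%). In 48 of the late hairpins the 5p arm alone and in 27 the 3p arm alone was detected on all arrays, and in 69 of the 79 the other arm was detected on no array. Where the 5p arm alone was detected, its probe had a median GC content of 66.7% and that of the 3p arm 56.2%, while both medians were 50% in the earlier set. The probe of the detected 5p arm was the richer in GC in 38 of the 48 late 5p-only hairpins, the poorer in 9 (such as those of miR-3082 and miR-6939) and equal in 1. In the 27 late 3p-only hairpins the detected arm's probe was the richer in 20, the poorer in 5 and equal in 2.

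The 4 hairpins with both arms were those of miR-1839, miR-1897, miR-3620 and miR-7047. The arms are read by different probes, so their levels have no order of abundance. MiR-1839-5p read 6.75 ± 0.03 in control and 6.85 ± 0.15 in Akita, and miR-1839-3p 7.89 ± 0.11 and 8.09 ± 0.19. MiR-1897-5p read 6.35 ± 0.33 and 6.42 ± 0.19, and miR-1897-3p 7.17 ± 0.23 and 7.48 ± 0.24. MiR-3620-3p read 5.91 ± 0.16 and 6.07 ± 0.09, with the 5p arm near the floor at 4.78 ± 0.34 and 4.63 ± 0.08. MiR-7047-5p read 8.87 ± 0.42 and 8.74 ± 0.24, and miR-7047-3p 5.25 ± 0.20 and 5.54 ± 0.07. MiR-3620-5p was too dim to be tested between groups. No other arm of these hairpins passed the test, and the smallest adjusted p, that of miR-7047-3p, was 0.081 by limma.

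The comparison of Akita with control kidneys asks which miRNAs differ in the diabetic kidney. It was tested with limma over 285 miRNAs, each above background on the 4 arrays of one group or of both, with Benjamini-Hochberg adjustment and a threshold of 0.05. Of the 123 members 96 could be tested, and 27 were too dim. The members that entered through 1 group only had to be high there: 7 were above background on all control arrays and not on all Akita arrays, and 4 the reverse. All changes are relative to the 75th percentile, against which the median over the tested miRNAs was 0.06 on the log2 scale. By the names of their scans, the control arrays filled 1 row of the slide and the Akita arrays the other. An effect of row and one of genotype therefore cannot be told apart.

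The test called 7 members: miR-6412, miR-8101, miR-7080-3p, miR-7671-3p and miR-3092-3p were higher in Akita kidneys and miR-1894-3p and miR-8102 lower. That is 7 of 96 tested members (7.29%), where 14.7% of all tested miRNAs were called and 29 of 170 (17.1%) of the earlier set. In the higher direction it was 5.21% of the members, with 8.42% over all tested miRNAs, and in the lower direction 2.08%, with 6.32%. The difference between these shares was not tested. No tested member had a log2 fold change beyond 0.70 in either direction, while those in the earlier set reached -1.26 and 1.31. The median log2 fold change was 0.11 for the members and 0.04 for the earlier set, and 64 of 96 members (66.7%) had a value above 0, against 58.6% of all tested miRNAs.

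The direction of the calls depended on the scaling: without scaling 0 members were called higher and 20 lower, and with labelling spike-ins as the reference 0 and 19, where the scaled values gave 5 and 2. Over all 285 tested miRNAs, 109 were called in either direction without scaling, 116 with spike-ins and 42 with scaling, so the change of the counts was not particular to the members. At an unadjusted p under 0.05, limma counted 22 members higher and 5 lower with scaling and 1 and 27 without it. With scaling, 97 of all 285 tested miRNAs had an unadjusted p under 0.05 by limma. The 75th percentiles behind the scaling were 495 to 520 in control and 369 to 446 in Akita.

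MiR-6412 had the largest called rise, 1.40-fold. Its values were 7.44, 7.50, 7.21 and 7.14 in control and 7.88, 7.73, 7.67 and 7.93 in Akita. Every Akita sample lay above every control sample. The log2 fold change was 0.48 ± 0.10 (SE; adjusted p = 0.017 by limma). The Akita mean was 1.52 times the control mean on its 17-base probe and 1.38 times on its 18-base probe. The 17-base probe was well above background on 5 of the 8 arrays and the 18-base probe on all 8. The call was lost without Akita replicate 1 (adjusted p = 0.051 by limma) and also without scaling or with spike-in scaling. Raising the floor by a factor of 4 removed the call too (adjusted p = 0.066 by limma). So did keeping the dim miRNAs in the test (adjusted p = 0.27 by limma).

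MiR-8101 read 7.08, 6.91, 6.92 and 7.00 in control and 7.37, 7.52, 7.13 and 7.26 in Akita, without overlap. The rise was 1.27-fold (0.34 ± 0.09 on the log2 scale, SE, with an adjusted p of 0.039 by limma). Its probes are 11 and 12 bases long, with ratios of Akita to control means of 1.29 and 1.26. With Akita replicate 3 or control replicate 1 left out the call held, and with any of the other 6 samples left out it did not (adjusted p up to 0.12).

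MiR-7671-3p, miR-7080-3p and miR-3092-3p were dimmer and rose by 1.20-fold, 1.21-fold and 1.19-fold. MiR-7671-3p read 5.48, 5.71, 5.62 and 5.60 in control and 5.89, 5.79, 5.89 and 5.91 in Akita (log2 fold change 0.26, adjusted p = 0.038 by limma). MiR-7080-3p read 5.09, 5.07, 4.98 and 4.95, and 5.25, 5.29, 5.20 and 5.44 (0.27, adjusted p = 0.039). MiR-3092-3p read 5.84, 5.81, 5.72 and 5.61, and 5.96, 5.97, 5.98 and 6.10 (0.26, adjusted p = 0.047). In each of the 3 the groups did not overlap, and in each both probes had a higher mean in Akita. With 1 sample left out at a time, the call of miR-7671-3p held without control replicate 2 or Akita replicate 2, and those of miR-7080-3p and miR-3092-3p held without control replicate 1 only. Without scaling, the changes of miR-7671-3p (-0.0074) and miR-3092-3p (-0.016) were close to 0.

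MiR-1894-3p and miR-8102 are among the 7 members tested only because they were above background on all control arrays, where they had to be high. None of the 85 members above background on all 8 arrays was called lower by limma, and 2 were lower at an unadjusted p under 0.05 when those 85 were fitted in a test of such miRNAs only. MiR-1894-3p read 5.88, 5.53, 5.65 and 5.35 in control and 5.10, 4.88, 4.99 and 5.11 in Akita, where it was above background on none of the 4 arrays. It was 1.50-fold lower in Akita, an estimate that rests on Akita values not well above background (log2 fold change -0.58 ± 0.11 SE, adjusted p = 0.010 by limma). The adjusted p stayed under 0.05 with each of the 8 samples left out in turn (up to 0.035), which does not bear on how the member entered the test. With normexp background correction the log2 fold change was 0.020.

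MiR-8102 read 5.52, 5.19, 5.18 and 5.08 in control and 4.85, 4.85, 4.82 and 4.68 in Akita, where it was above background on 2 arrays. The groups did not overlap. Its log2 fold change was -0.44 ± 0.10 (SE; adjusted p = 0.024 by limma), in which the values of the other 2 Akita arrays are not well above background. It lost the call without Akita replicate 1, 3 or 4 (adjusted p up to 0.058), and with normexp its log2 fold change was 0.075.

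**Figure D3:**
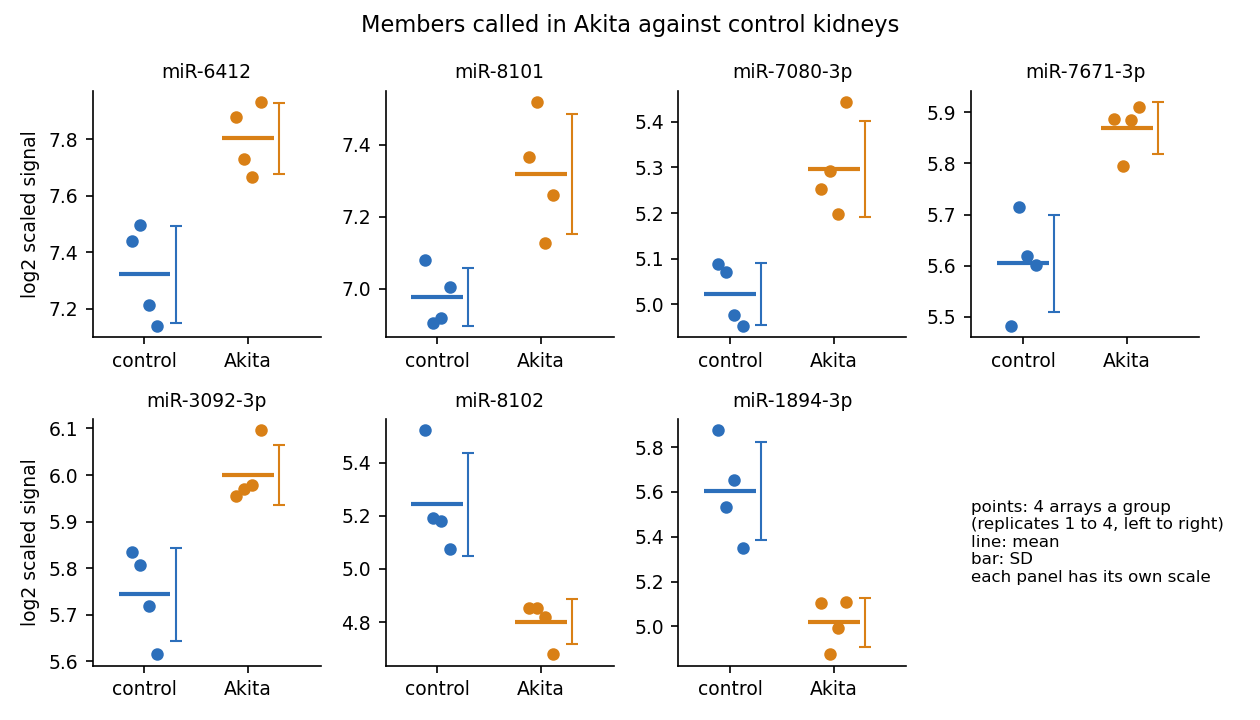
Log2 scaled signal of the 7 called members, 1 point per array, in control (blue) and Akita (orange) kidneys; horizontal lines are means and bars SDs of 4 arrays, and each panel has its own scale. In all 7 panels the groups do not overlap, and the shifts run from a rise of 0.48 (miR-6412) to a fall of 0.58 (miR-1894-3p).

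Markers of leukocytes moved in the same comparison. Of 5 miRNAs that mark leukocytes, 4 were lower in Akita without overlap, where 22.8% of all tested miRNAs did not overlap in either direction. The summed scaled signal of the 5 was 940 to 1101 in control and 651 to 773 in Akita. The 6 miRNAs of kidney epithelium were all detected, with summed signals of 22156 to 25065 in control and 22718 to 26476 in Akita. Of 3 pancreas miRNAs 0 were detected on any array, and of 3 of striated muscle 1 was detected on all arrays. The part of leukocytes in the falls of miR-1894-3p and miR-8102 was not tested. The erythrocyte miRNAs summed to between 134 and 1314 within the control group and to between 645 and 858 in Akita, inside the control range.

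Among the members that missed the threshold, 6 had the largest changes. MiR-7216-5p (-0.59, 95% interval -1.04 to -0.14, adjusted p = 0.079 by limma) and miR-6987-5p (-0.49, -0.85 to -0.12, adjusted p = 0.074) had 2 of 4 Akita samples below all control samples and the other 2 within the control range. MiR-8110, the member with 10 G at its 3′ end, read 8.76, 8.69, 8.95 and 8.70 in control and 8.92, 9.72, 9.18 and 9.71 in Akita. Its difference of 0.61 (0.20 to 1.01) had an adjusted p of 0.0501 by limma, and 1 Akita sample lay within the control range. The other 3 are miR-3473b, miR-3473a and miR-3473e, described below.

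The groups did not overlap in 17 of 96 tested members (17.7%), 14 with higher and 3 with lower values in Akita, where 22.8% of all tested miRNAs did not overlap. The 7 called members were all among the 17. The other 10 were the bright miR-6366 and miR-5100, and miR-1904, miR-7241-5p, miR-6973b-5p, miR-7666-5p, miR-6943-3p, miR-1947-3p, miR-3544-3p and miR-7085-3p, named for this pattern after their values were seen. Their adjusted p-values ran from 0.059 to 0.14.

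By arm, 3 of 19 tested members from the 3p arm were called higher and 1 lower, 0 of 43 from the 5p arm were called by limma (8 at an unadjusted p under 0.05), and of 34 with no arm in the name 2 were called higher and 1 lower. In the earlier set 9 of 73 from the 3p arm were called higher and 7 lower, and 7 and 6 of 85 from the 5p arm, and 14.7% of all tested miRNAs were called. A difference between arms was not tested. The members' median log2 fold changes were 0.26 (3p), 0.05 (5p) and 0.11 (no arm). By probe GC, 1 of 13 tested members under 50%, 4 of 32 at 50% to 65% and 2 of 51 over 65% were called. In the earlier set it was 14 of 86, 13 of 75 and 2 of 9.

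The spread within a group was wider in the members than in earlier-numbered miRNAs of like level. The median within-group SD was 0.16 (log2) over the 123 members and 0.11 over the earlier set. At levels of 5 to 6 it was 0.17 (51 members) and 0.14 (38), at 6 to 8 it was 0.18 (41) and 0.13 (65), and at 8 to 10 it was 0.27 (9) and 0.11 (38). Above 10 it was 0.12 (6) and 0.10 (40). Accordingly, the median SE of the fold change was 0.11 for the members and 0.08 for the earlier set.

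The arrays also ranked differently in the 2 sets. Control replicate 1 was the highest of the 4 control arrays in 88 of 123 members (71.5%) but in 42 of 191 earlier-numbered miRNAs (22.0%). It was the lowest in 107 of those 191 (56.0%) and in 2 members (1.63%). In the earlier set control replicate 2 was the highest in 113 (59.2%). Akita replicate 2 was the lowest Akita array in 118 of the earlier set (61.8%) and in 24 members (19.5%). Akita replicate 4 was the highest Akita array in both, in 64 members (52.0%) and 119 of the earlier set (62.3%). Control replicate 1 also had the most miRNAs detected, 429, where the other arrays had 350 to 392, and the most outlier spots (3.02%, others 2.03% to 2.50%); their part in the pattern was not tested. Without control replicate 1, the members called higher in Akita by limma rose from 5 to 11, and without any 1 of the other 7 samples they were 1 or 2.

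**Figure D4:**
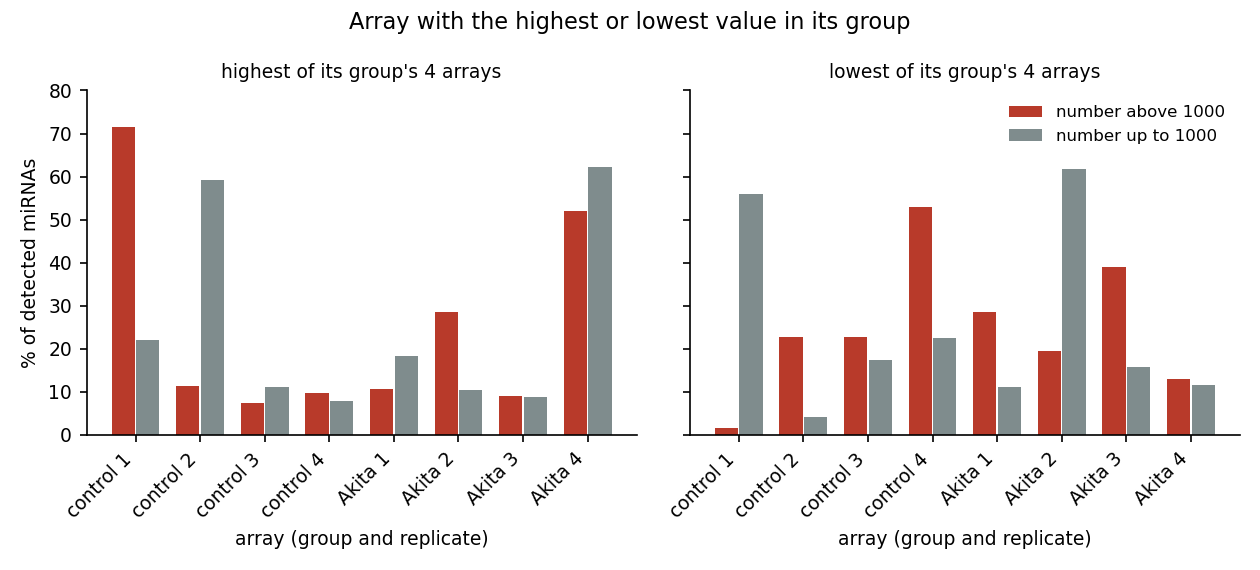
Percentage of detected miRNAs for which an array had the highest (left) or the lowest (right) value of the 4 arrays of its group, for miRNAs with numbers above 1000 (red, n = 123) and up to 1000 (grey, n = 191). Control replicate 1 is highest in 71.5% of the red set and 22.0% of the grey set, and lowest in 1.63% and 56.0%.

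Several members varied widely within a group, among them 3 with closely related sequences. MiR-3473b read 13.28, 12.94, 12.38 and 13.37 in control and 12.89, 13.30, 11.99 and 10.99 in Akita. MiR-3473a read 10.31, 9.94, 9.52 and 10.33, and 9.94, 10.30, 9.21 and 8.57. MiR-3473e read 6.23, 5.75, 5.70 and 6.19, and 5.61, 6.01, 5.31 and 5.31. In all 3 control replicate 3 was the lowest control sample and Akita replicates 3 and 4 the lowest Akita samples. This order of arrays was not limited to related sequences. It was found in 13 of 123 members (10.6%) and in 11 of 191 earlier-numbered miRNAs (5.76%). The other 10 members were miR-3535, miR-5121, miR-6238, miR-6378, miR-6898-5p, miR-6969-5p, miR-7005-5p, miR-7011-5p, miR-7020-5p and miR-7048-5p. MiR-3535, for example, read 5.85, 5.87, 5.17 and 6.09 in control and 6.03, 6.30, 4.73 and 4.56 in Akita.

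The mean differences of these 3 were -0.70 (95% interval -1.73 to 0.33, adjusted p = 0.30 by limma), -0.52 (-1.31 to 0.28, adjusted p = 0.32) and -0.40 (-0.82 to 0.01, adjusted p = 0.15), none past the threshold. The 3 share the stretch GAGAUGGCU with miR-5128, which read 7.17, 6.60, 6.95 and 7.43 in control and 6.66, 6.80, 6.59 and 6.91 in Akita. MiR-5128 did not follow the order of the other 3: Akita replicate 4 was its highest Akita sample. These letters are part of the opening of B2, an abundant family of short interspersed repeats of the mouse genome. GAGATGGCT or its reverse complement, searched on both strands, occurs in 287 of 32851 RefSeq promoter windows (0.874%). MiR-3473g, which bears the same number but lacks the stretch, varied less, at 8.95 ± 0.04 in control and 9.03 ± 0.13 in Akita. MiR-3473f, which ends with only the first bases of the stretch, did not follow the order either. Its scaled signals were 145, 99.5, 113 and 113 in control. In Akita they were 106, 94.7, 114 and 120, highest in replicate 4.

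MiR-1187 and miR-3082-5p, which hold GU repeats, were low in Akita replicate 4 alone. MiR-1187 read 7.31, 6.82, 6.61 and 7.09 in control and 7.41, 7.04, 7.16 and 5.91 in Akita. MiR-3082-5p read 7.35, 6.85, 6.71 and 7.11, and 7.61, 7.14, 7.47 and 6.01. Both share GUGUGUGUGU, found as DNA on either strand in 487 promoter windows (1.48%). In 4 members, miR-3473b, miR-3082-5p, miR-1187 and miR-3473a, Akita replicate 4 lay more than 0.25 below every other array (3.25% of 123). The same held for 4 of 191 earlier-numbered miRNAs (2.09%), miR-690, miR-574-5p, miR-466i-5p and miR-9-5p. These miRNAs were picked for their spread, so the values are a description. MiR-5100 and miR-3968 share a different stretch, CGAAUCCCA, near their 5′ ends, which their probes read in part only, and their values varied little.

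**Figure D5:**
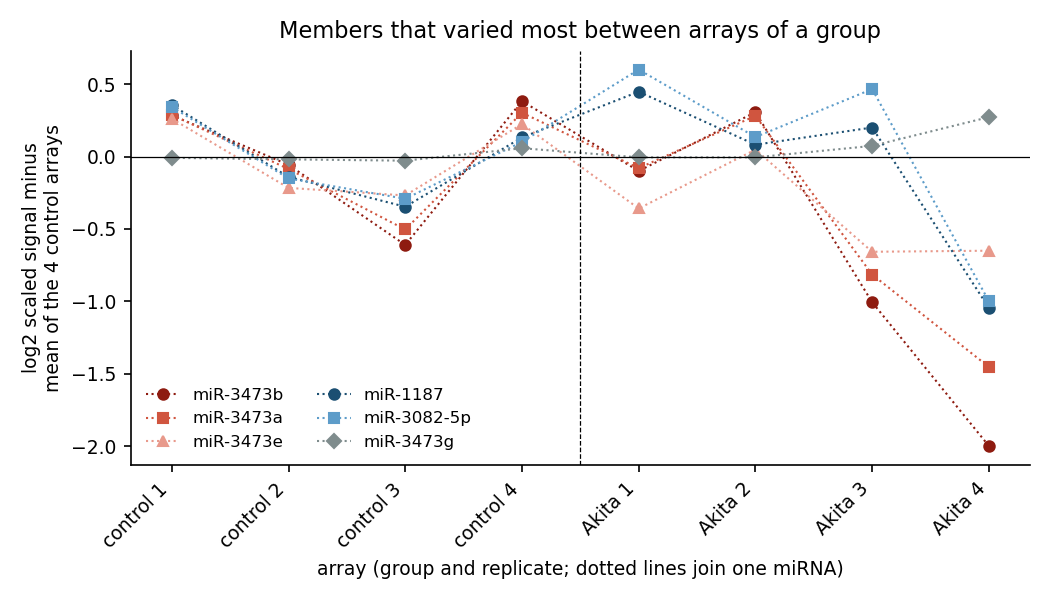
Log2 scaled signal of 6 members minus the mean of the 4 control arrays, by array; dotted lines join the values of 1 miRNA and have no order in time. MiR-3473b, miR-3473a and miR-3473e move together, miR-1187 and miR-3082-5p are low in Akita replicate 4 alone, and miR-3473g stays between levels of 8.92 and 9.22.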

How the data were processed

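From each of 8 kidney samples 100 ng of total RNA was dephosphorylated, ligated to a Cy3 dye and put on an Agilent miRNA array, per the labels' protocols. The deposited scanner files hold spot intensities, extracted with Agilent Feature Extraction 12.0.3.1, per the submitters' processing notes; background was subtracted and arrays were not normalized to each other, per the file headers. The detection and background flags were used as deposited. The deposited value table holds a ratio per miRNA, normalized by the authors in steps not given in the sources used here, and served as an alternative.

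Control and outlier spots were left out, spots averaged per probe, and each array scaled to a common 75th percentile of 451 probes. These had a share of 0.5 or more of their spots above background on every array. Probes of a miRNA were summed, sums under 23.65 set to that floor, and log2 taken. The comparison used limma 3.58.1 (R 4.3.3; lmFit and eBayes, 6 residual degrees of freedom) on 285 miRNAs. P-values are two-sided and Benjamini-Hochberg adjusted, and the fit was tested on simulated data. The number of arrays limits the precision. Sequences were read from RefSeq tables.

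Members, lists and tests were chosen with earlier results of these data known. Named are the called members, the 12 brightest, the 6 largest changes not called, hairpins with both arms, the 3 dimmest and neighbours of the selection limits. Others were named after their values were seen. Replicate numbers come from the titles. Same-numbered samples deviated from their group means with correlations of -0.35 to 0.34. Deviations from a mean of 4 samples are tied to one another, so these values cannot show whether the numbers pair the samples. The main fit used no pairing.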

Additional observations from a re-analysis of the deposited data

Results flagged for a closer look

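In 4 of 61 groups of 4 arrays, over the members named in the report, 1 array stood far from the other 3 relative to the group's range; chance gives about 1 in 20. MiR-6366 read 18.15 in Akita replicate 4, and the nearest Akita value was 17.88. MiR-3092-3p read 6.10 in Akita replicate 4, with the nearest at 5.98. MiR-5126 read 9.31 in Akita replicate 1, with the nearest at 9.88. MiR-7047-3p read 5.44 in Akita replicate 3, with the nearest at 5.56.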

How the results depend on the processing

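The counts of called members depended on most choices. Against 42 miRNAs called in all, with 5 members higher and 2 lower and a median member change of 0.11, there were 109 in all, 0 and 20, and -0.16 without scaling. Labelling spike-ins gave 116, 0 and 19, and -0.13. The percentile over all probes gave 14, 2 and 0, and 0.20. Cyclic loess gave 64, 13 and 5, quantile normalization 12 and 4 members, median scaling 9 higher, and normexp 89 in all, 31 and 0. A floor 4 times higher gave 9, 0 and 0, and a median of 0, and no filter on dim miRNAs 6, 0 and 0. At an unadjusted p under 0.05, limma counted 1 member higher without scaling and 1 with spike-ins, 4 lower with the percentile over all probes and 0 with normexp, 6 and 0 with the higher floor, and 24 and 5 without a filter. Asking for all 8 arrays above background left 0 lower (2 at an unadjusted p under 0.05). Higher members numbered 3 with the brightest probe, with outlier spots kept and with a trend in eBayes, and 2 with the deposited total gene signal and with the deposited value table. With the replicate number as a block, 25 miRNAs and 2 higher members were called. Leaving out 1 sample at a time gave 20 to 40 in all, 1 to 11 higher and 1 to 3 lower.

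Of 721 log2 fold changes of named members under alternatives, 573 kept their direction or were at 0 and kept their side of the threshold, 81 lost the call, 25 gained one and 42, of 19 of the 29 tested members, turned their sign. Among called members these were miR-1894-3p (0.020) and miR-8102 (0.075) with normexp and miR-3092-3p (-0.016) and miR-7671-3p (-0.0074) without scaling. Removing the scaling moves miRNAs above the floor by a like amount. It turned miR-3473g (-0.19), miR-1839-3p (-0.075), miR-1839-5p (-0.17), miR-1897-5p (-0.20), miR-3620-3p (-0.12), miR-3963 (-0.16), miR-3968 (-0.076), miR-5100 (-0.086), miR-5126 (-0.27), miR-6366 (-0.061) and miR-8117 (-0.049). Spike-ins turned the same 11, in this order to -0.16, -0.048, -0.14, -0.18, -0.090, -0.13, -0.049, -0.058, -0.24, -0.034 and -0.022. Normexp turned miR-3473e (0.017), miR-6987-5p (0.044) and miR-7216-5p (0.0094). MiR-1897-5p, at 0.07 in the report, also turned with quantile normalization (-0.022), cyclic loess (-0.0092), the higher floor (-0.032) and without control replicate 2 (-0.038) or Akita replicate 4 (-0.018), and was at most 0.22 with 1 sample left out. MiR-5126, at 0.00, turned with cyclic loess (-0.021), the value table (-0.029), outlier spots kept (-0.018) and without control replicate 2 (-0.091) or Akita replicate 2 (-0.061), 3 (-0.057) or 4 (-0.026), and was at most 0.16 with 1 sample left out. MiR-7047-5p turned without control replicate 1 (0.062). Other causes were not tested.

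The median level of the members minus that of the earlier set was -1.34. It was -1.18 with the limit at 2000, -1.55 at 500 and -0.91 with detection on at least 4 arrays. Their GC difference of 14.3 percentage points was 16.7, 16.9 and 14.3 there, 19.0 with members above background on all 8 arrays and 16.9 for the mature sequences. The detected share of 11.6% became 14.3% with detection on at least 4 arrays and 8.00% with all 8 above background. Signal over background limits the dim members most: 27 could not be tested.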
